A study of Mus musculus with 14 samples.

Results

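Sca-1Lo cells of the adult mouse prostate, sorted for medium to low surface Sca-1, were compared with Sca-1Neg cells, which lack it, across all genes of the array. The comparison uses the 4 samples whose labels name them Sca-1Lo and the 4 named Sca-1Neg, 8 of the 14 samples of the series. All 8 came from males aged 6 to 8 weeks by the labels, where the methods give 6 weeks. The strain is C57BL by the labels and C57BL/6 by the methods, with no transgene, gene deletion or treatment named. The methods describe cells from the proximal prostatic ducts, digested and sorted by the intensity of Sca-1 staining, and no gate against blood or endothelial cells is given in the sources used here. The series also holds 3 samples of Sca-1Hi cells of the same strain and age, sorted for high Sca-1, and 3 of unsorted urogenital sinus epithelium from C57BL/6 embryos of 16 days, and both entered the fit. The study takes Sca-1Lo cells as enriched in transit-amplifying progenitors and Sca-1Neg cells as the most differentiated ones. The labels number the replicates, but nothing states that they came from separate animals, so that p-values measure the spread between these samples, which may be technical.

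Sca-1 is a small membrane-anchored surface protein encoded by Ly6a. It was first used to enrich blood stem cells, and it also marks capillary endothelium and the primitive epithelium of the proximal prostatic ducts. The prostatic epithelium has a basal layer, which carries keratins 5 and 14 and the transcription factor p63, and a luminal layer, which carries keratins 8 and 18 and secretes the seminal proteins. Around the ducts lie smooth muscle, fibroblasts, nerves, vessels with their pericytes, and resident leukocytes.

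Signals are PLIER values on a linear scale in arbitrary units, given for replicates 1 to 4 in that order. Ly6a, which checks the sort and is no finding, had signals of 5820.2, 3129.5, 8348 and 8505 on the Sca-1Lo arrays and 856, 620.1, 505 and 342 on the Sca-1Neg arrays, with no overlap. Replicates 1 to 4 of both populations carry the study's sample numbers 1, 2, 4 and 5. The median signal was between 80.7 and 99.5 on the 8 arrays. The log2 ratio of the 3' to the 5' probe set of Gapdh, which reflects both RNA integrity and labelling, was 2.54, 1.98, 3.10 and 3.22 in Sca-1Lo and 1.66, 1.84, 2.75 and 2.69 in Sca-1Neg. It was higher in Sca-1Lo within all 4 pairs of replicates. The same ratio of Actb was higher in Sca-1Lo for replicates 1, 2 and 4 and lower for replicate 3 (1.91 against 2.11). The part of RNA integrity or labelling in the results was not tested. The Sca-1Neg arrays did not resemble each other in the markers of other cell types. The summed signal of 22 macrophage genes was 22959.9, 56163, 1891 and 7058 on the Sca-1Neg arrays against 2734, 2572, 1679.5 and 1517 on the Sca-1Lo arrays, so that Sca-1Neg replicates 1 and 2 stood far above all others and replicate 3 lay within the Sca-1Lo range. The summed signal of 17 smooth muscle and pericyte genes was highest in Sca-1Neg replicate 4, at 140474, against 57647, 45249 and 38486 in the other 3. In such bulk samples fewer cells of a type and less RNA per cell cannot be told apart.

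**Figure D1:**
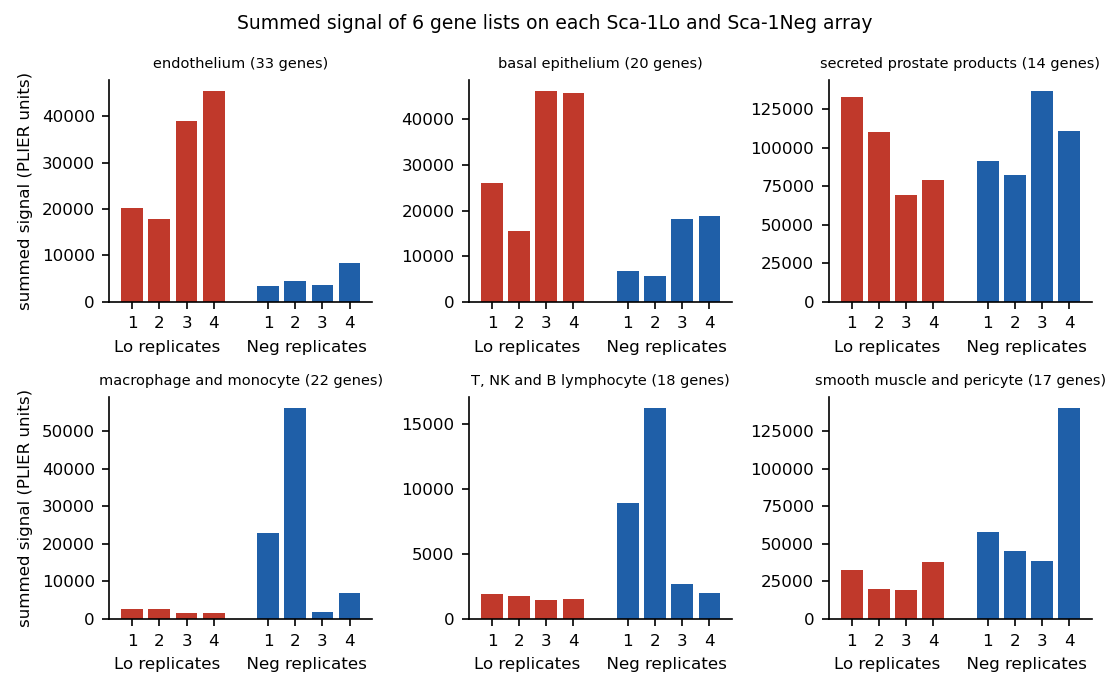
Summed PLIER signal (vertical, linear) of the tested members of 6 gene lists on each of the 4 Sca-1Lo (red) and 4 Sca-1Neg (blue) arrays, by replicate number. The endothelial and basal sums were higher on the Sca-1Lo arrays, except that the basal sum of Sca-1Lo replicate 2 (15609.7) lay below those of Sca-1Neg replicates 3 and 4, and the macrophage and lymphocyte sums were highest in Sca-1Neg replicates 1 and 2.

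A probe set was called when its limma adjusted p was under 0.05 and its difference over 0.81 on the log2 scale. Of 41031 probe sets tested, 509 were called higher in Sca-1Lo than in Sca-1Neg (1.24%) and 272 lower (0.663%). By gene, each taken as the brightest of its probe sets, 292 of 17186 were called higher (1.7%) and 142 lower (0.826%). The 4 Sca-1Lo arrays all lay above the 4 Sca-1Neg arrays in 729 genes (4.24%) and below them in 428 (2.49%), among them 276 of the genes called higher and 130 of those called lower. At an unadjusted p under 0.05 (limma), 1544 of the 17186 genes were higher and 984 lower, beside which list counts at that level are to be read. The median log2 difference of all genes, Sca-1Lo minus Sca-1Neg, was 0.078, and differences below are on the same scale. The calls draw on the spread of all 14 arrays. With the 8 arrays alone limma called 172 probe sets higher and 20 lower. The methods' t-test at the same thresholds, run here on all probe sets tested, called 2 and 0. The study compared populations after selecting variable probe sets that passed further tests. That chain, without detection calls and SAM, called 156 and 16 here. Neither run added an offset before log2, whereas the study's supplementary log ratios match log2 of the signal plus 16.

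**Figure D2:**
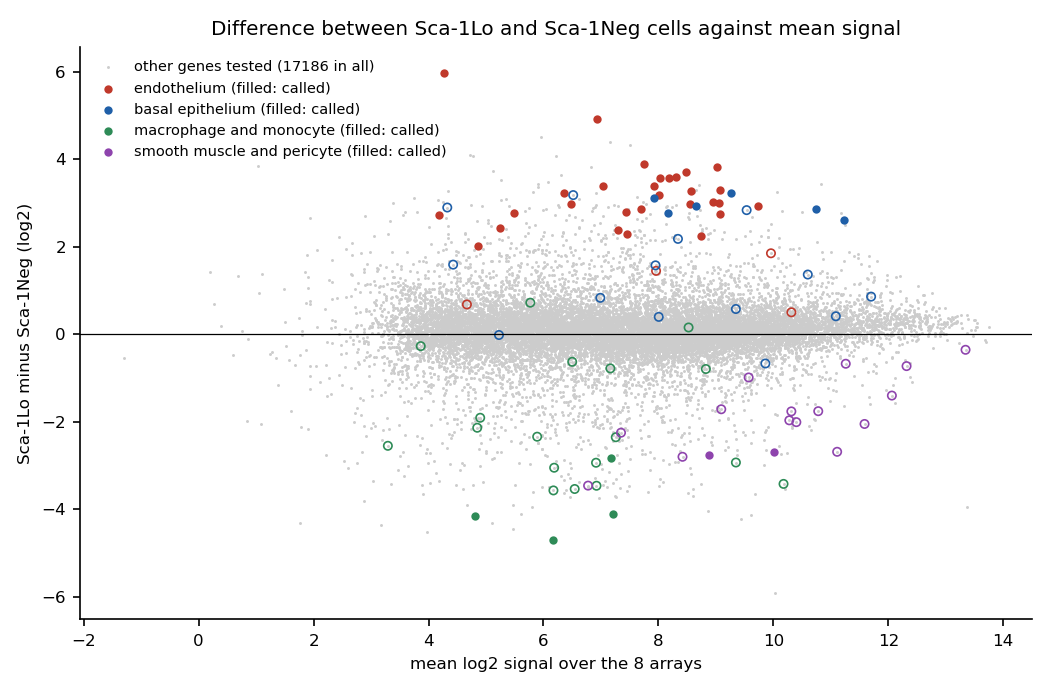
Difference between Sca-1Lo and Sca-1Neg (log2, vertical) against the mean log2 signal over the 8 arrays (horizontal) for 17186 genes (grey), with members of 4 lists in colour, filled where called. All 33 endothelial genes (red) lie above 0, with 29 called higher, and 20 of the 22 macrophage genes (green) lie below 0, with 4 called lower.

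Endothelial genes, those of the lining of blood vessels, had the largest share of called members among the 38 gene lists described. Lists and members were chosen with earlier results of these data known, so that this rank and the list counts are no independent evidence. The endothelial list holds Esm1, Aplnr, Adgrl4 and Aqp1, which are also among the largest rises of this comparison. Of 33 endothelial genes tested, 29 rose, none fell and 4 were not called, and all 33 differences were positive. Their median difference was 2.98, and 2.93 with signals under 20 set to 20, against 0.078 for all genes, and in 31 of them every Sca-1Lo array lay above every Sca-1Neg array. Esm1, which encodes a proteoglycan secreted by endothelial cells, had the largest difference of the deposited signals among called genes whose arrays did not overlap. Its signals were 114, 79.8, 283 and 209.7 on the Sca-1Lo arrays and 1.44, 0.921, 3.52 and 7.38 on the Sca-1Neg arrays. All 4 Sca-1Neg values lay under the signal of 20 that served as the floor of measurement, so that the rise is given as at least 7.62-fold (limma adjusted p = 0.00049). With signals under 20 set to 20 the difference of Esm1 was 2.93. Aplnr, Grp, Adgrl4, Exoc3l2, Aqp1 and Ushbp1 then had larger differences, as did other called genes, among them Igfbp3 (3.41) and Cdh5 (3.29). Elsewhere a lower bound is given likewise where the mean signal of the lower population was under 20, and its p is that of the deposited signals. Aplnr, the receptor of the vascular peptide apelin, had signals of 588, 476, 577 and 1253 on the Sca-1Lo arrays and 27.2, 41.9, 14.6 and 14.2 on the Sca-1Neg arrays. The groups were far apart, with a difference of 4.93 ± 0.74 (SE, limma adjusted p = 0.00488). Adgrl4, an adhesion receptor of endothelial cells, had signals of 596, 479, 1376 and 1211 on the Sca-1Lo arrays and 42.9, 64.4, 59.5 and 60.0 on the Sca-1Neg arrays and differed by 3.89 ± 0.36 (SE, limma adjusted p = 0.000455). The water channel Aqp1, present in vessels as well as in epithelia, had signals of 1608, 1114, 2181 and 3817 on the Sca-1Lo arrays and 97.7, 116, 145 and 222 on the Sca-1Neg arrays and differed by 3.83 ± 0.40 (SE, limma adjusted p = 0.00049).

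The 3 genes taken as defining markers of endothelium also rose. Cdh5, the cadherin of endothelial junctions, had signals of 911, 902, 1308 and 1869.6 on the Sca-1Lo arrays and 75.3, 146, 131 and 152 on the Sca-1Neg arrays and differed by 3.29 ± 0.55 (SE, limma adjusted p = 0.0098). Kdr, a receptor of vascular endothelial growth factor, had signals of 981, 1087, 2179 and 2253 on the Sca-1Lo arrays and 123, 205, 164 and 304 on the Sca-1Neg arrays and differed by 3.01 ± 0.47 (SE, limma adjusted p = 0.00613). Pecam1, an adhesion molecule of the same junctions, was low in both, at 33.3, 43.2, 52.3 and 61.9 on the Sca-1Lo arrays and 7.31, 13.6, 8.20 and 3.02 on the Sca-1Neg arrays. Its rise is given as at least 2.32-fold, since all Sca-1Neg values lay under the floor (limma adjusted p = 0.00295). None of the 3 overlapped between the groups, and of the 2 probe sets of Cdh5 only 1 was called. Cldn5, the claudin of endothelial tight junctions, differed by 2.98 ± 0.47 (SE, limma adjusted p = 0.00634). Cd34, a surface mucin of endothelium and of several progenitor cells, had signals of 646, 608, 2737 and 3817 on the Sca-1Lo arrays and 149, 175, 179 and 195 on the Sca-1Neg arrays, and Sca-1Lo replicates 3 and 4 were several times above replicates 1 and 2. Its difference was 3.03 ± 0.58 (SE, limma adjusted p = 0.0173).

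The angiopoietin receptor Tek, the transcription factors Sox17, Sox18 and Erg, nitric oxide synthase Nos3 and von Willebrand factor (Vwf) were among the other members called higher. The 4 members not called were Eng, Esam, Cd93 and Sele. The signals of Esam, an adhesion molecule of endothelium and platelets, were 1182, 1153, 1821 and 2136 on the Sca-1Lo arrays and 972, 798, 555 and 3027 on the Sca-1Neg arrays, and the groups overlapped because of Sca-1Neg replicate 4. Cd93 overlapped likewise, with 1693 in Sca-1Neg replicate 4 against 1128 to 3673 in Sca-1Lo. Of 5 genes of lymphatic vessels tested, limma called none, with a median of 1.005 and with 3 higher and 1 lower at an unadjusted p under 0.05. The endothelial count was between 21 and 30 with any 1 array left out and 27 with the replicate number as a block. Without Sca-1Neg replicates 1 and 2 it was 14. Within study numbers 1 and 2 the median was 2.504, and within 4 and 5 it was 3.43.

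The sequences before the starts of 5 endothelial genes that rose and of 1 macrophage gene that fell are shown as what these members carry at their promoters. They are the 200 bases before the RefSeq start, from build GRCm38.p6, 5' to 3' on the strand of the gene. Esm1 lies at chr13:113209459-113209658, plus strand. Robo4, a guidance receptor of endothelium, lies at chr9:37401772-37401971, plus strand, and Cd34 at chr1:194938621-194938820, plus strand. Emcn, an endothelial mucin, lies at chr3:137340878-137341077, plus strand, and Rasip1, a Ras-interacting protein of vessels, at chr7:45627337-45627536, plus strand. C1qb, a chain of complement C1q, lies at chr4:136886201-136886400, minus strand. Capitals mark the letters CAGGAAG, a form of the site that ETS transcription factors bind, or CTTCCTG where the same site lies on the opposite strand. Robo4, Emcn, Rasip1 and C1qb are shown for a match whose place differs, Cd34 for its membership in 2 of the lists, and Esm1, with no match in the window, for its size of change. These 6 were chosen after their values were seen.
Esm1: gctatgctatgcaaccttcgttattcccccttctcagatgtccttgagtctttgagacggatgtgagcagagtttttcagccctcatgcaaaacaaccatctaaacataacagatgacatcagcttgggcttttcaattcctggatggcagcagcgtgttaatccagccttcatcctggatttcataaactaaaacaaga
Robo4: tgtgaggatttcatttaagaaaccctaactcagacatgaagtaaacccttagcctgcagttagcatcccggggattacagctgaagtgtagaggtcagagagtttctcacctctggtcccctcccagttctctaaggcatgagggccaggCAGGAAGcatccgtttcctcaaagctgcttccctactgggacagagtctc
Cd34: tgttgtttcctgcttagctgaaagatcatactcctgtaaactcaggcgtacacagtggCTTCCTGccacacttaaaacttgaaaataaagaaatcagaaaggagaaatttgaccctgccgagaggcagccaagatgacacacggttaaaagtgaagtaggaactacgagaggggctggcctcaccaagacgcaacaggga
Emcn: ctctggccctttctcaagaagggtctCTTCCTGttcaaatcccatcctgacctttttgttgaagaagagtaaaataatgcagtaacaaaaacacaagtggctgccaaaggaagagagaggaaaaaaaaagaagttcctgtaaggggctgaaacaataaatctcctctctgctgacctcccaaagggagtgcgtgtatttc
Rasip1: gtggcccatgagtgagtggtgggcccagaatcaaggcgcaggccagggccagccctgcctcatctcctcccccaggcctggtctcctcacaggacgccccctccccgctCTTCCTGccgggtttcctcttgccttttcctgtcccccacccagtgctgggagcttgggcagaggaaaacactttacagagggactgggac
C1qb: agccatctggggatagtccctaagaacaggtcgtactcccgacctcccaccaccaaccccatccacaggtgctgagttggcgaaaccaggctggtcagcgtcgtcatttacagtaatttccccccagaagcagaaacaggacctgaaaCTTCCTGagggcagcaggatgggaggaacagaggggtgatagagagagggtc

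In the promoter windows of 250 bases before and 50 after the start, the letters CAGGAAG on either strand occurred in 4359 of all 32851 promoters (13.3%). They occurred in 8 of 22 promoters of the endothelial genes (36.4%), which covered 18 of the 33 genes. The share was 52.4% in the list of genes common to all leukocytes (11 of 21 promoters), 21.1% in the macrophage list (4 of 19) and 15.4% in the basal list (2 of 13). None of 12 promoters of smooth muscle and pericyte genes held them. A match of letters is a description and not a site in use, and the shares rest on few promoters.

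Among the basal epithelial genes, 6 of 20 tested rose and none fell, with a median of 1.89 (1.48 with signals under 20 set to 20). Keratin 5, a main keratin of basal cells, had signals of 4468, 2076, 7133 and 7025 on the Sca-1Lo arrays and 382, 203, 2008 and 1069.8 on the Sca-1Neg arrays. The highest Sca-1Neg value, in replicate 3, lay just under the lowest Sca-1Lo value. Krt5 differed by 2.86 ± 0.60 (SE, limma adjusted p = 0.0283). Its partner Krt14 had signals of 1172, 877, 3538 and 3562 on the Sca-1Lo arrays and 105, 48.8, 795 and 395 on the Sca-1Neg arrays and differed by 3.24 ± 0.75 (SE, limma adjusted p = 0.0424). Col17a1, a collagen that anchors basal cells to their membrane, had signals of 473, 314, 1146 and 1539.6 on the Sca-1Lo arrays and 47.9, 33.2, 193 and 149.9 on the Sca-1Neg arrays and differed by 3.12 ± 0.62 (SE, limma adjusted p = 0.0213). Lamb3, a chain of the laminin of the same anchorage, overlapped between the groups, with 922, 559, 1582 and 1868 on the Sca-1Lo arrays and 61.3, 43.9, 589 and 282 on the Sca-1Neg arrays, and differed by 2.93 ± 0.69 (SE, limma adjusted p = 0.0462). The other 2 called members were Krt15 and the laminin chain Lama3. In every 1 of these 6 genes Sca-1Neg replicates 3 and 4 had higher signals than replicates 1 and 2.

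Trp63, which encodes p63, the third marker taken to define basal cells, had signals of 1235, 739, 4313 and 3953 on the Sca-1Lo arrays and 141, 104, 909 and 440.4 on the Sca-1Neg arrays. Its difference of 2.84 ± 0.69 missed the threshold (limma adjusted p = 0.0527) and passed it with the replicate number as a block (adjusted p = 0.018, limma). Of its 4 probe sets, 1 other was called higher. The basal count was 10 with that block. It was between 1 and 12 with any 1 array left out, at 1 without Sca-1Lo replicate 3 or 4 or Sca-1Neg replicate 1 or 2 and at 12 without Sca-1Lo replicate 2 or Sca-1Neg replicate 3. It was 0 without both Sca-1Neg replicates 1 and 2. The median was 2.11 within study numbers 1 and 2 and 1.94 within 4 and 5.

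The study names 11 markers of prostate stem cells, which it chose with these samples in view, so that their direction here is no independent evidence. Of the 11, Cd34, Krt5 and Krt14 rose and none fell, with a median of 0.93. Itga6, the integrin chain CD49f of basal cells, had signals of 2181, 1411, 3393 and 3701 on the Sca-1Lo arrays and 583, 878, 1454 and 1166 on the Sca-1Neg arrays, with a difference of 1.37 ± 0.35 (SE, limma adjusted p = 0.0677) that missed the threshold, while the other of its 2 probe sets was called higher. Cd200, a surface glycoprotein, had a difference of 0.93 ± 0.53 (SE, limma adjusted p = 0.494), with Sca-1Lo replicates 3 and 4 at 4624 and 4919 and Sca-1Neg replicate 4 at 3414. The hyaluronan receptor Cd44 had a difference of 0.68 ± 0.35 (SE, limma adjusted p = 0.433). Ctnnb1, which encodes beta-catenin, had a difference of 0.36 ± 0.27 (SE, limma adjusted p = 0.65). The difference was 0.13 ± 0.51 (SE, limma adjusted p = 0.96) for the Hedgehog receptor component Smo. For the survival factor Bcl2 it was 0.036 ± 0.39 (SE, limma adjusted p = 0.988). Kit, the stem cell factor receptor, had a negative difference of -0.78 ± 0.35 (SE, limma adjusted p = 0.338). These last 6, and Itga6, overlapped between the groups, as did Trp63. All of these values are of RNA. The study also stained Sca-1Hi and Sca-1Lo cells for protein by flow cytometry. It reports increases there for antigens that include the products of Itga6, Krt5, Bcl2, Ctnnb1 and Cd34, which were not examined here.

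Epithelial genes outside the basal layer rose in part. Of 20 luminal genes tested, 3 rose and none fell, with a median of 0.69, which was 1.24 within study numbers 1 and 2 and -0.024 within 4 and 5. Krt4, a keratin of stratified and urethral epithelium, had signals of 2682, 1363, 3159 and 1429 on the Sca-1Lo arrays and 451, 364, 318 and 187 on the Sca-1Neg arrays and differed by 2.68 ± 0.33 (SE, limma adjusted p = 0.00151). Krt7, a keratin of ducts, had signals of 2461, 1577, 2834 and 1689 on the Sca-1Lo arrays and 591, 309.6, 656 and 324 on the Sca-1Neg arrays and differed by 2.22 ± 0.30 (SE, limma adjusted p = 0.00223). Both were free of overlap, and the luminal count was 3 with any 1 array left out except without Sca-1Neg replicate 3, where it was 8. The keratins that define the luminal layer were at high levels in both populations. Krt8 had signals of 7474, 4865, 7453 and 4985 on the Sca-1Lo arrays and 3654, 2239, 7239 and 3275 on the Sca-1Neg arrays, and its difference was 0.70 ± 0.32 (SE, limma adjusted p = 0.344). Krt18 had a difference of 0.46 ± 0.42 (SE, limma adjusted p = 0.727), with its highest signal, 10301, in Sca-1Neg replicate 3. The adhesion molecule Epcam had a difference of 0.68 ± 0.46 (SE, limma adjusted p = 0.587).

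Of 20 genes of squamous differentiation tested, 5 rose and none fell, with a median of 1.05 (0.82 with signals under 20 set to 20). Ivl, which encodes the cornified envelope protein involucrin, had signals of 102, 89.2, 37.3 and 21.9 on the Sca-1Lo arrays and 8.16, 22.8, 3.03 and 2.63 on the Sca-1Neg arrays, with Sca-1Lo replicate 4 just under Sca-1Neg replicate 2. Its rise is given as at least 2.53-fold (limma adjusted p = 0.0286). Sprr1a, a cross-linked protein of the same envelope, had signals of 690.2, 519, 385 and 243 on the Sca-1Lo arrays and 119.7, 89.8, 179.7 and 36.1 on the Sca-1Neg arrays and differed by 2.23 ± 0.42 (SE, limma adjusted p = 0.0177). Scel, which encodes sciellin of the envelope, differed by 2.33 ± 0.41 (SE, limma adjusted p = 0.0115). Krt13, a keratin of stratified mucosa, rose at least 3.44-fold (limma adjusted p = 0.011). Dapl1, an epithelial differentiation gene, was the fifth. The count was 3 without Sca-1Lo replicate 1 or 3.

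Of 19 genes of epithelial water and ion transport tested, 4 rose and none fell, with a median of 0.86. They were Aqp1, the calcium-activated chloride channel regulators Clca1 and Clca3a1, and Scnn1a, a subunit of the epithelial sodium channel. Clca1 had signals of 98.6, 109, 201 and 85.7 on the Sca-1Lo arrays and 22.9, 17.5, 13.3 and 10.1 on the Sca-1Neg arrays, without overlap, and rose at least 5.64-fold (limma adjusted p = 0.00151). Scnn1a had signals of 350.2, 275, 514 and 239 on the Sca-1Lo arrays and 80.1, 77.1, 173 and 62.9 on the Sca-1Neg arrays and differed by 1.87 ± 0.33 (SE, limma adjusted p = 0.0128). Clca3a1 differed by 2.77 ± 0.60 (SE, limma adjusted p = 0.0318). The count was 2 without Sca-1Lo replicate 3 and 7 without Sca-1Neg replicate 3.

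The remaining genes among the 12 largest rises belonged to none of these lists, except Grp. Grp, which encodes gastrin-releasing peptide and is made by neuroendocrine cells, had signals of 842, 309, 1192 and 618 on the Sca-1Lo arrays and 37.6, 22.3, 36.5 and 30.9 on the Sca-1Neg arrays and differed by 4.41 ± 0.50 (SE, limma adjusted p = 0.000894). It was the 1 called gene of the 12 neuroendocrine genes tested (median -0.41), and the defining marker Chga pointed the other way, with 18.0, 38.8, 6.14 and 6.50 on the Sca-1Lo arrays and 26.1, 47.0, 27.9 and 62.0 on the Sca-1Neg arrays (limma adjusted p = 0.404). Syp, the synaptic vesicle marker of the same cells, had a difference of -0.43 ± 0.31 (SE, limma adjusted p = 0.63). Akr1c14, a hydroxysteroid dehydrogenase that acts on androgen metabolites, had signals of 73.1, 72.1, 178 and 152 on the Sca-1Lo arrays and 10.2, 7.21, 4.54 and 5.05 on the Sca-1Neg arrays and rose at least 5.46-fold (limma adjusted p = 0.00049). Rbp7, a cellular retinol-binding protein, had signals of 111, 90.1, 129 and 126 on the Sca-1Lo arrays and 8.15, 13.6, 5.72 and 3.13 on the Sca-1Neg arrays and rose at least 5.66-fold (limma adjusted p = 0.00049). In all these genes but Chga and Syp the groups stood apart. Exoc3l2 rose at least 14.8-fold (limma adjusted p = 9.31e-05), Fam167b at least 6.35-fold (limma adjusted p = 0.00322) and the predicted gene Gm32688 at least 2.28-fold (limma adjusted p = 0.00049). Ushbp1 differed by 3.82 ± 0.56 (SE, limma adjusted p = 0.00452). The last of the 12, 4933427E13Rik, had signals of 18.3, 7.49, 7.59 and 3.40 on the Sca-1Lo arrays and 1.54, 0.397, 0.457 and 0.303 on the Sca-1Neg arrays, all under the floor, and is given no fold. It exceeded 20 only on the Sca-1Hi arrays, and its call was lost once signals under 20 were set to 20, as for all of the 6 genes called higher and 1 called lower whose levels lay under the floor in both populations.

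**Figure D3:**
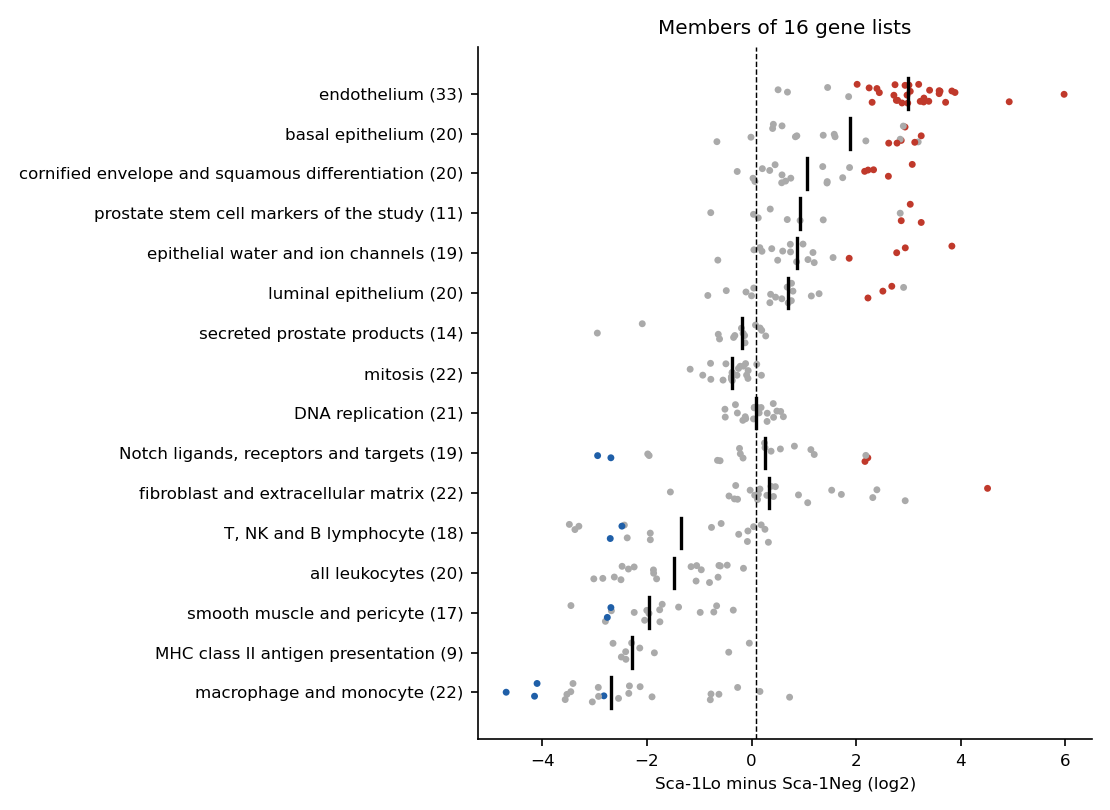
Difference between Sca-1Lo and Sca-1Neg (log2) of each tested member of 16 gene lists, red where called higher, blue where called lower and grey otherwise, with the number tested in parentheses. Black bars mark list medians, from 2.98 for endothelium to -2.68 for macrophages, and the dashed line the median of all genes, 0.078.

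Markers of the secretory prostate and of the cell cycle were not called. At the shares of all genes called (1.7% higher and 0.826% lower) lists of this size hold few calls, so that their absence says little. None of 14 genes of secreted prostate products was called (median -0.18; at an unadjusted p under 0.05, 0 higher and 2 lower). Pbsn, which encodes the androgen-regulated secretory protein probasin, had signals of 16869, 14857, 9067 and 10941 on the Sca-1Lo arrays and 9777, 8798, 15332 and 12056 on the Sca-1Neg arrays, overlapping between the populations, with a difference of 0.16 ± 0.38 (SE, limma adjusted p = 0.926). Msmb, a seminal plasma protein, had a difference of 0.27 ± 0.42 (SE, limma adjusted p = 0.868). Tgm4, the prostatic transglutaminase, had signals of 12251, 10846, 5672 and 5194 on the Sca-1Lo arrays and 6404, 6124, 12709 and 11383 on the Sca-1Neg arrays and a difference of -0.13 ± 0.48 (SE, limma adjusted p = 0.953). Within study numbers 1 and 2 the Sca-1Lo values of Tgm4 were the higher ones, and within 4 and 5 the lower ones.

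Sca-1Lo cells are described by the study as enriched in transit-amplifying cells, which divide. None of 22 genes of mitosis was called (median -0.37; 0 higher and 2 lower at an unadjusted p under 0.05). The proliferation marker Mki67 had signals of 242, 279, 126 and 200.3 on the Sca-1Lo arrays and 213, 233, 383 and 252 on the Sca-1Neg arrays, with a difference of -0.37 ± 0.33 (SE, limma adjusted p = 0.71). Top2a, a topoisomerase of dividing cells, had a difference of -0.55 ± 0.34 (SE, limma adjusted p = 0.543). Cdk1, the kinase that starts mitosis, had a difference of -0.15 ± 0.37 (SE, limma adjusted p = 0.928). The populations overlapped in all 3. None of 21 genes of DNA replication (median 0.084) and none of 20 G1 cyclins, kinases and inhibitors (median 0.083) was called. The mitosis median was 0.12 within study numbers 1 and 2 and -0.94 within 4 and 5.

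Some leukocyte genes fell in Sca-1Lo cells, and their counts rested on part of the arrays. Of 22 macrophage genes tested, 4 fell and none rose, with a median of -2.68 (-2.47 with signals under 20 set to 20). C1qa, a chain of complement C1q made by macrophages, had signals of 26.9, 16.3, 16.8 and 5.37 on the Sca-1Lo arrays and 899, 2444, 43.0 and 187 on the Sca-1Neg arrays, and the Sca-1Neg values spanned from replicate 3, the lowest, to replicate 2. It fell at least 16.9-fold (limma adjusted p = 0.0226), and the call was lost with the replicate block (adjusted p = 0.062, limma). C1qb, another chain, had signals of 56.9, 57.1, 28.1 and 17.5 on the Sca-1Lo arrays and 1426, 3391, 88.2 and 326 on the Sca-1Neg arrays and differed by -4.10 ± 0.89 (SE, limma adjusted p = 0.0336). Cx3cr1, the fractalkine receptor of monocytes and macrophages, had signals of 5.97, 7.47, 7.78 and 5.77 on the Sca-1Lo arrays and 246, 695, 19.0 and 61.2 on the Sca-1Neg arrays. It fell at least 5.94-fold (limma adjusted p = 0.0177), and its call too was lost with the block (adjusted p = 0.0725, limma). Lysozyme gene Lyz2 overlapped, because of Sca-1Neg replicate 3, and differed by -2.82 ± 0.64 (SE, limma adjusted p = 0.0394), with adjusted p = 0.0546 in limma with the block. Csf1r, the receptor of the macrophage growth factor, had signals of 476, 523, 245 and 258 on the Sca-1Lo arrays and 8437, 23762, 375 and 2724 on the Sca-1Neg arrays and was not called (limma adjusted p = 0.0712), while 1 other of its 3 probe sets was called lower.

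The macrophage count was 0 without Sca-1Lo replicate 3, Sca-1Lo replicate 4 or Sca-1Neg replicate 1, and 15 without Sca-1Neg replicate 3. With the replicate block it was 3. Of 9 genes of antigen presentation by MHC class II, none was called, all with negative differences and a median of -2.29. None of 20 genes common to all leukocytes was called either. All 20 differences were negative (median -1.49; 11 lower and 0 higher at an unadjusted p under 0.05). Ptprc, the pan-leukocyte antigen CD45, had signals of 168, 87.7, 135 and 131 on the Sca-1Lo arrays and 1424, 2619, 113 and 627 on the Sca-1Neg arrays, so that Sca-1Neg replicate 3 lay within the Sca-1Lo range (limma adjusted p = 0.127). In the other 2 defining genes of this list Sca-1Neg replicate 3 also lay within the Sca-1Lo range. The beta-2 integrin gene Itgb2 had a difference of -2.48 ± 0.64 (SE, limma adjusted p = 0.0681). For Coro1a, a leukocyte actin-binding protein, it was -2.36 ± 0.59 (SE, limma adjusted p = 0.0606). Without Sca-1Neg replicate 3, 10 of the 20 were called lower.

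Of 22 chemokines and cytokines tested, Ccl3 and Il1b fell and none rose. Ccl3, a chemokine of activated macrophages and lymphocytes, had the largest fall of all genes whose arrays did not overlap. Its signals were 87.2, 86.8, 195 and 218 on the Sca-1Lo arrays and 24921, 31227, 1583 and 3421 on the Sca-1Neg arrays. Sca-1Neg replicates 1 and 2 were several times above replicates 3 and 4, which were still above every Sca-1Lo array. The difference was -5.91 ± 0.78 (SE, limma adjusted p = 0.0021), and adjusted p = 0.0516 in limma with the replicate block. Il1b, which encodes interleukin 1 beta, had signals of 102, 87.3, 74.1 and 71.5 on the Sca-1Lo arrays and 2189, 1661, 194 and 633 on the Sca-1Neg arrays and differed by -3.30 ± 0.56 (SE, limma adjusted p = 0.0101), a call that the block kept. Of 18 lymphocyte genes tested, 2 fell and none rose, with a median of -1.35 (-1.01 with signals under 20 set to 20). They were Cd79b, part of the B cell receptor, and Ms4a1, which encodes CD20 of B cells. Cd79b had signals of 9.43, 18.3, 9.85 and 14.7 on the Sca-1Lo arrays and 89.8, 191, 23.2 and 113 on the Sca-1Neg arrays and fell at least 4.1-fold (limma adjusted p = 0.0197). Ms4a1 differed by -2.48 ± 0.54 (SE, limma adjusted p = 0.0323). Both lay lower on every Sca-1Lo array. The count was 0 without any 1 of Sca-1Lo replicates 1, 3 and 4 and Sca-1Neg replicates 1, 2 and 4.

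Nkg7, a granule protein of natural killer and cytotoxic T cells, split the Sca-1Neg arrays sharply. Its signals were 52.4, 50.2, 26.8 and 40.9 on the Sca-1Lo arrays and 3467, 6863, 27.9 and 68.2 on the Sca-1Neg arrays, and it was not called (limma adjusted p = 0.243). Cd3e, a chain of the T cell receptor complex, was low in both populations, with a difference of 0.038 ± 0.39 (SE, limma adjusted p = 0.988). Of 11 genes of mast cells and granulocytes tested, S100a9 fell and none rose (median -0.78). S100a9, a subunit of calprotectin of neutrophils and monocytes, had signals of 37.4, 9.004, 12.6 and 4.51 on the Sca-1Lo arrays and 568, 554, 42.8 and 121 on the Sca-1Neg arrays and fell at least 8.59-fold (limma adjusted p = 0.0322). None of 10 genes of MHC class I presentation was called (median 0.21).

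Of 17 pericyte and smooth muscle genes tested, 2 fell and none rose, and all 17 differences were negative, with a median of -1.96. Cspg4, the proteoglycan NG2 of pericytes, had signals of 206, 166, 157 and 199 on the Sca-1Lo arrays and 850.1, 708, 554 and 6702 on the Sca-1Neg arrays, with Sca-1Neg replicate 4 several times above the other 3. It differed by -2.76 ± 0.59 (SE, limma adjusted p = 0.0314). Notch3, the Notch receptor of mural cells, had signals of 975, 420.1, 244 and 269 on the Sca-1Lo arrays and 2108, 1748, 1632 and 7742 on the Sca-1Neg arrays and differed by -2.69 ± 0.52 (SE, limma adjusted p = 0.0186). Both calls were lost with the replicate block (adjusted p = 0.0803 for Cspg4 and adjusted p = 0.0897 for Notch3, limma). Rgs5, a regulator of G-protein signalling used as a pericyte marker, had signals of 3303, 1547, 272 and 417 on the Sca-1Lo arrays and 4517, 3699, 2626 and 22391 on the Sca-1Neg arrays and was not called (limma adjusted p = 0.104). Myh11, the myosin of smooth muscle, had signals of 2319, 1322, 798 and 2147 on the Sca-1Lo arrays and 7107, 4333, 3563 and 13903 on the Sca-1Neg arrays, without overlap. It was not called (limma adjusted p = 0.171) except with the block (adjusted p = 0.0256, limma). Acta2, smooth muscle actin, had a difference of -0.35 ± 0.49 (SE, limma adjusted p = 0.849). With 1 array left out the count was between 0 and 7, at 0 without Sca-1Lo replicate 3 or 4, at 7 without Sca-1Neg replicate 3 and still at 2 without Sca-1Neg replicate 4.

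Fibroblast genes did not share 1 direction, with 16 positive and 6 negative differences. Of 22 tested, only Pi16 rose and none fell, with a median of 0.33, which was -0.58 within study numbers 1 and 2 and 1.27 within 4 and 5. Pi16, a peptidase inhibitor of fibroblasts, had signals of 117, 48.9, 763 and 1823 on the Sca-1Lo arrays and 8.37, 6.62, 10.01 and 52.9 on the Sca-1Neg arrays, overlapping between Sca-1Lo replicate 2 and Sca-1Neg replicate 4, and rose at least 11.7-fold (limma adjusted p = 0.0494). This call was lost without the filter on low signals (adjusted p = 0.0567, limma). The 3 defining genes were not called. Pdgfra, the growth factor receptor of fibroblasts, had signals of 368, 212, 2945 and 5699.5 on the Sca-1Lo arrays and 92.7, 143, 269 and 599 on the Sca-1Neg arrays (limma adjusted p = 0.351). The matrix proteoglycan Dcn had a difference of 0.90 ± 0.66 (SE, limma adjusted p = 0.636). For the collagen gene Col1a1 it was 0.37 ± 0.98 (SE, limma adjusted p = 0.935). In Sca-1Lo all 3 were several times higher in replicates 3 and 4 than in replicate 2. Of 10 Schwann cell and nerve genes none was called. Sox10, a transcription factor of Schwann cells, reached 12534 in Sca-1Neg replicate 4 and was between 52.4 and 265 on the other 7 arrays (limma adjusted p = 0.403).

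The other genes among the 12 largest falls, ranked on the deposited signals, also varied within Sca-1Neg. Alas2, the enzyme of heme synthesis in red cell precursors, had signals of 150.1, 127, 265 and 132 on the Sca-1Lo arrays and 4561, 8846, 744 and 2582 on the Sca-1Neg arrays and differed by -4.21 ± 0.68 (SE, limma adjusted p = 0.00765). Ighv14-2, a variable segment of the immunoglobulin heavy chain, had signals of 1.24, 4.69, 0.824 and 3.24 on the Sca-1Lo arrays and 54.4, 58.9, 8.37 and 102 on the Sca-1Neg arrays and fell at least 2.03-fold (limma adjusted p = 0.011). Apol11b, of the apolipoprotein L family, fell at least 7.71-fold (limma adjusted p = 0.0387). Among the Sca-1Neg arrays Alas2 was highest in replicate 2 and Ighv14-2 in replicate 4, and both were lowest in replicate 3. Grip2, a glutamate receptor interacting protein, had signals of 923, 313, 61.2 and 69.6 on the Sca-1Lo arrays and 3316, 2073, 1589 and 10789 on the Sca-1Neg arrays and differed by -4.14 ± 0.79 (SE, limma adjusted p = 0.018). Its highest value was in Sca-1Neg replicate 4, as it was for Lrrc10b and for the dopamine receptor gene Drd1. Lrrc10b fell at least 8.69-fold (limma adjusted p = 0.0286) and Drd1 at least 4.92-fold (limma adjusted p = 0.0172). Smco3 fell at least 3.75-fold (limma adjusted p = 0.0231). Of these 7 genes, Ighv14-2 and Smco3 kept their calls with the replicate block, and Alas2 (adjusted p = 0.0516), Apol11b (adjusted p = 0.11), Grip2 (adjusted p = 0.0812), Lrrc10b (adjusted p = 0.0671) and Drd1 (adjusted p = 0.0687, all limma) lost theirs. With signals under 20 set to 20 the differences of Ighv14-2, Smco3 and Drd1 were -1.34, -1.91 and -2.30, smaller in size than that of Il1b, which is not among the 12.

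The calls of 13 of the 62 named genes called were lost in limma once signals under 20 were set to 20. Of those that fell, Apol11b had an adjusted p of 0.0979, C1qa of 0.0515, Cd79b of 0.0541, Cx3cr1 of 0.156, Ighv14-2 of 0.0912, Lyz2 of 0.0603 and Smco3 of 0.151 in that limma fit. Of those that rose, Ivl had 0.168, Krt14 0.0657, Lamb3 0.0695, Pi16 0.13 and Wnt10a 0.273, and 4933427E13Rik, given above, was the last. The macrophage and lymphocyte counts were then 1 each, and Esm1, Aplnr, Cdh5, Kdr and Pecam1 kept their calls.

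**Figure D4:**
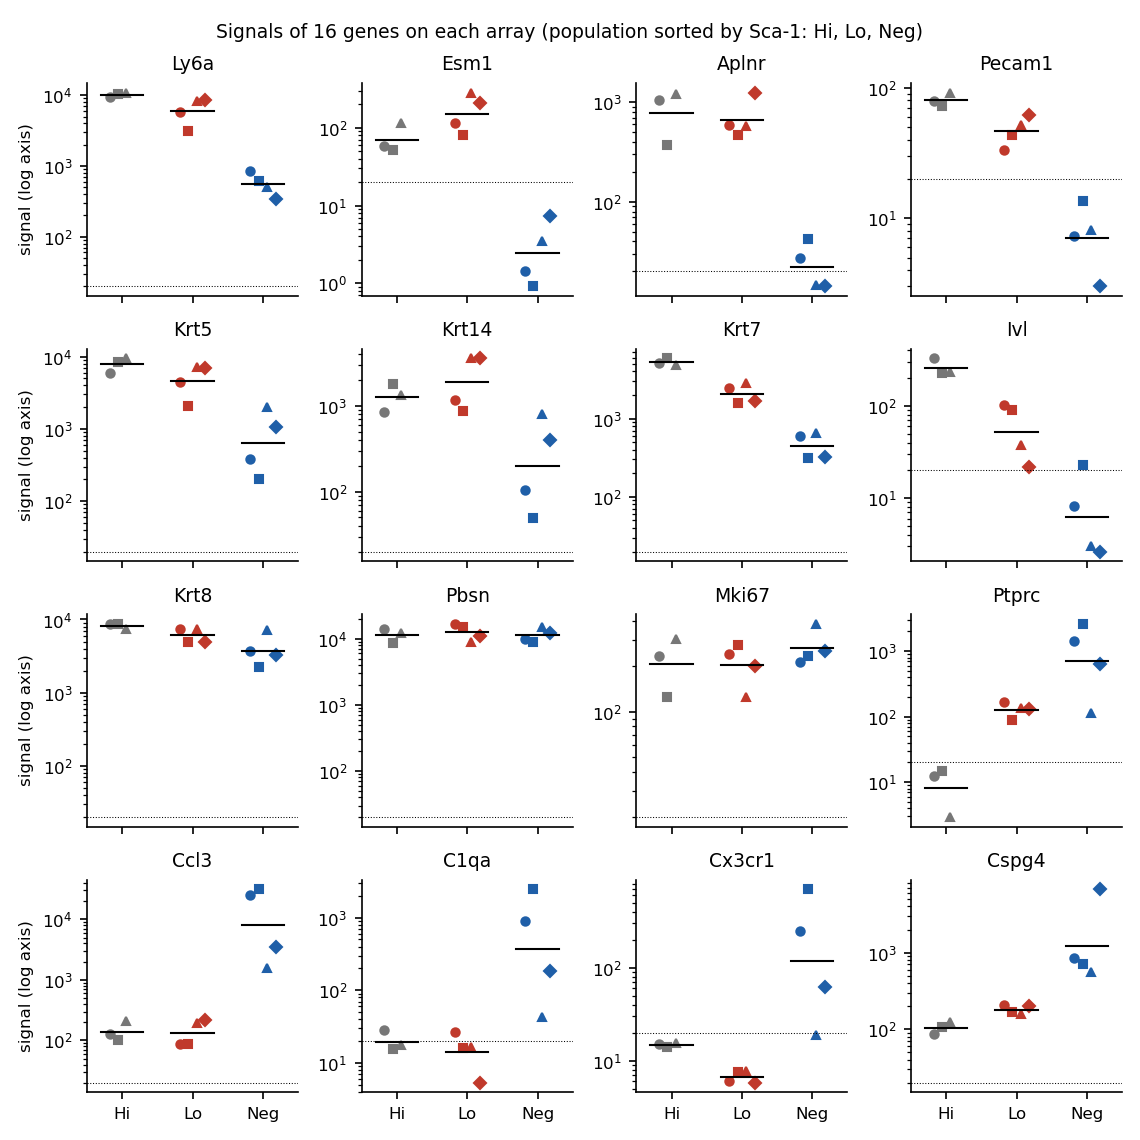
Signals (log axis) of 16 genes on each Sca-1Hi (Hi, grey), Sca-1Lo (Lo, red) and Sca-1Neg (Neg, blue) array, with circle, square, triangle and diamond for replicates 1 to 4, geometric means as bars and the floor of 20 dotted. Ly6a, Esm1, Aplnr and Pecam1 separate Lo from Neg on all arrays, whereas in Ptprc the Neg replicate 3 (113) lies among the Lo values.

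Signalling genes changed in small numbers, to be read beside the shares of all genes called (1.7% higher and 0.826% lower). In the Notch pathway, in which ligands of the Delta and Jagged families on a neighbouring cell activate receptors that switch on Hes and Hey genes, 2 of 19 genes rose and 2 fell (median 0.25). The ligand Dll1 had signals of 494, 338, 1067 and 1023 on the Sca-1Lo arrays and 111, 153, 176 and 129 on the Sca-1Neg arrays and differed by 2.22 ± 0.36 (SE, limma adjusted p = 0.00814). The receptor Notch4, known from endothelium, had signals of 194, 163, 407 and 422 on the Sca-1Lo arrays and 53.8, 53.2, 50.03 and 93.2 on the Sca-1Neg arrays and differed by 2.17 ± 0.35 (SE, limma adjusted p = 0.00765). The target Hey2 had signals of 124, 71.4, 27.5 and 43.6 on the Sca-1Lo arrays and 538, 357, 152 and 1276 on the Sca-1Neg arrays and differed by -2.94 ± 0.65 (SE, limma adjusted p = 0.0355). The fourth was Notch3, given above with the pericyte genes. All 4 were free of overlap.

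Of 36 Wnt ligands, receptors and antagonists, the ligand Wnt10a rose at least 1.72-fold (limma adjusted p = 0.0134) from signals under the floor, and none fell (median 0.34). Of 18 genes of retinoid synthesis and reception, Cyp26b1, which degrades retinoic acid, differed by 2.14 ± 0.40 (SE, limma adjusted p = 0.0168) and none fell (median 0.52). In the battery of the aryl hydrocarbon receptor, a sensor of planar aromatic compounds, 2 of 9 genes rose and none fell (median 1.16). Its target Cyp1a1, a cytochrome P450, had signals of 88.3, 92.0, 60.4 and 55.2 on the Sca-1Lo arrays and 35.7, 36.9, 25.4 and 23.0 on the Sca-1Neg arrays and differed by 1.28 ± 0.30 (SE, limma adjusted p = 0.0484). That call was lost without the filter on low signals (adjusted p = 0.0562, limma) and with any 1 of the 8 arrays left out. The aldehyde dehydrogenase Aldh3a1 differed by 2.28 ± 0.49 (SE, limma adjusted p = 0.0323). Both were higher on every Sca-1Lo array.

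Of 27 genes of IGF, EGF and FGF signalling, 2 rose and none fell (median 0.43). Igfbp3, a binding protein of IGFs, had signals of 1159, 937, 1575 and 1954 on the Sca-1Lo arrays and 126, 164, 111 and 115 on the Sca-1Neg arrays and differed by 3.41 ± 0.46 (SE, limma adjusted p = 0.00262). The fibroblast growth factor receptor Fgfr3 had signals of 908, 496, 2055 and 1229.8 on the Sca-1Lo arrays and 249.03, 170.4, 178 and 255 on the Sca-1Neg arrays and differed by 2.30 ± 0.38 (SE, limma adjusted p = 0.00908). Of 14 ABC transporters Abcb1a, the drug efflux pump P-glycoprotein, differed by 2.95 ± 0.37 (SE, limma adjusted p = 0.00151), and it was the only 1 called. Of 21 genes of cholesterol and fatty acid synthesis Pltp, a phospholipid transfer protein, rose by 2.78 ± 0.49 (SE, limma adjusted p = 0.0115), against a list median of -0.30. Among 21 claudins and other tight junction genes Cldn5 was the only 1 called (median 0.54).

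No member was called in the lists of Hedgehog signalling (15 tested, median 0.13), TGF-beta and BMP signalling (34 tested, median 0.13), ephrins and their receptors (19 tested, median 0.70) and steroid receptors and androgen response (14 tested, median 0.49). The same held for interferon response (17 tested, median 0.56), the unfolded protein response (20 tested, median 0.21) and housekeeping genes (11 tested, median 0.095). Of these 7 lists, at an unadjusted p under 0.05, ephrins held the most members upwards, with 6 and none lower. Immediate early genes, which rise during tissue digestion, had no called member among 21 and a median of 0.68. Their median was 0.047 within study numbers 1 and 2 and 1.498 within 4 and 5, and their part in the other differences was not tested.

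Sca-1Hi cells, on 3 arrays of the same fit, give the level of some of these genes in the third adult population. The comparison of Sca-1Hi with Sca-1Lo shares the Sca-1Lo arrays with the one above. Krt4 had Sca-1Hi signals of 9329, 9168 and 9487 and was higher in Sca-1Hi than in Sca-1Lo by 2.21 ± 0.36 (SE, limma adjusted p = 0.0461). Ly6a had Sca-1Hi signals of 9358, 10253 and 10878, and a difference from Sca-1Lo of 0.76 ± 0.38 (SE, limma adjusted p = 0.537). The endothelial gene Esm1 had Sca-1Hi signals of 57.9, 52.3 and 115, with a difference from Sca-1Lo of -1.11 ± 0.66 (SE, limma adjusted p = 0.598). For Aplnr, with Sca-1Hi signals of 1046, 374 and 1225, that difference was 0.22 ± 0.80 (SE, limma adjusted p = 0.967). Cldn5 was higher in Sca-1Hi by 1.82 ± 0.51 (SE, limma adjusted p = 0.301). The same difference was 0.91 for Adgrl4, 0.80 for Pecam1, 0.46 for Cdh5, 0.32 for Cd34, 0.13 for Kdr and -0.15 for Aqp1, none called. Squamous, channel and neuroendocrine genes given above had larger values, with 2.45 for Sprr1a, 2.30 for Ivl, 2.22 for Scel, 2.17 for Clca1 and 2.07 for Grp. Among basal genes it was 0.75 for Krt5, 0.39 for Col17a1, -0.17 for Lamb3 and -0.59 for Krt14. None of these was called either. Of the 292 genes called higher in Sca-1Lo, 237 had a Sca-1Hi mean above the Sca-1Lo mean. Of the 142 called lower, 111 had a Sca-1Hi mean below it. Of the 434 genes called either way, 7 were called between Sca-1Hi and Sca-1Lo. The matching shares over all genes are not given, so that these counts are a description and no result about the called genes.

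**Figure D5:**
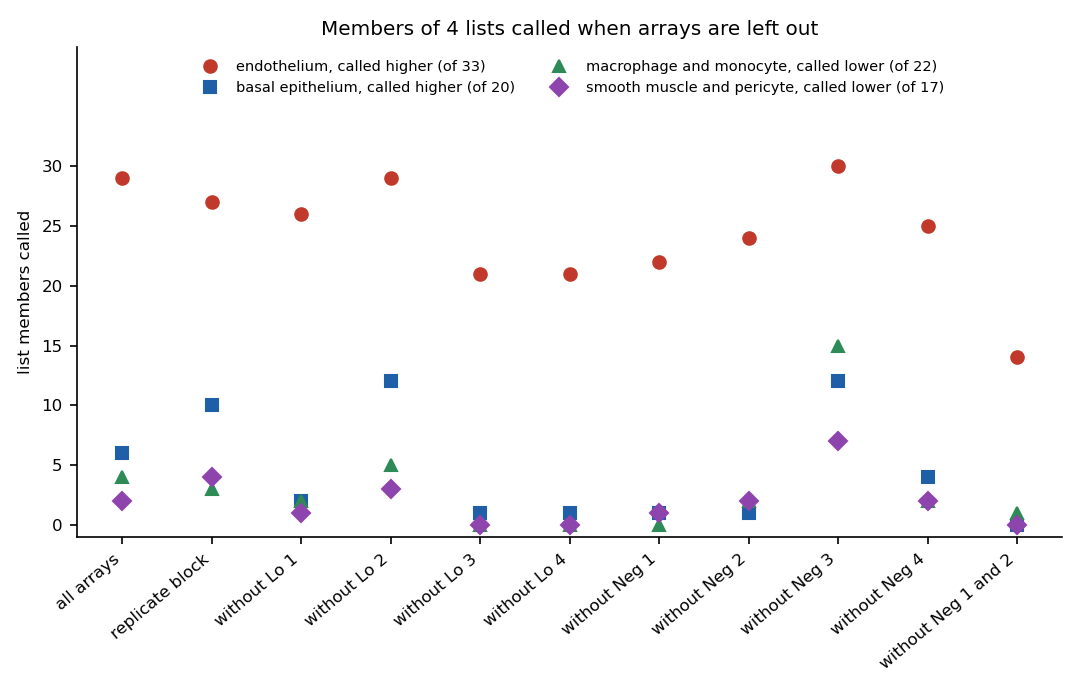
Number of members of 4 lists called (vertical) with all arrays, with the replicate number as a block, with each Sca-1Lo (Lo) or Sca-1Neg (Neg) array left out, and without Neg replicates 1 and 2 (horizontal). The endothelial count stayed between 14 and 30, and those of the other 3 lists fell to 0 in at least 1 setting and were highest without Neg replicate 3 (12, 15 and 7), a value the basal count also had without Lo replicate 2.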

How the data were processed

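The authors isolated RNA from sorted adult prostate cells and unsorted fetal epithelium and required a minimum RNA integrity number. They labelled it with a kit of repeated cycles and hybridised the labelled, fragmented cRNA to Affymetrix MOE430 2.0 arrays, 1 array per sample and 14 in all. The deposited values are intensity values, PLIER signals on a linear scale that the authors computed in ArrayAssist. The methods name PLIER as the source of normalized levels, and no further step that made arrays comparable is given in the sources used here. The MAS5 detection calls the study filtered on were not used.

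Signals were taken as log2 with no offset, unlike the study's supplementary log ratios, which match log2 of the signal plus 16. The 64 array controls were left out, and 41031 of 45101 probe sets, those that exceeded a signal of 20 on any array, were tested. One linear model of 4 group means was fitted over all 14 arrays with limma 3.58.1 in R 4.3.3, as tested on simulated data. A call needed p under 0.05 after Benjamini-Hochberg adjustment together with a log2 difference over 0.81 in size. Symbols came from GEO's platform annotation for 34945 probe sets and from the study's supplement for 72, and the 932 with several genes and 9088 with none were not named. A gene is its probe set of highest mean log2 signal. Some called genes had other probe sets that were not called. Among them, Cdh5, Fgfr3, Clca1, Ivl, Pi16 and Ms4a1 had 1 of 2 called, Krt13 and Notch4 1 of 3, and Krt14 2 of 3. No called gene had a probe set called in the opposite direction. Where the mean signal of a population lay under 20, its arrays below 20 were set to 20 and the fold is given as at least that value, with p from the deposited signals. Python 3.11.15, pandas 2.3.3 and matplotlib 3.10.9 served for tables and figures. The number of arrays limits the precision.

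The named genes are Ly6a, the 12 largest rises and 12 largest falls among called genes without overlap, up to 4 called members of each of 38 lists with the largest change, the defining markers and the study's 11 stem cell markers. The values of 1 called luminal gene are not reported here. Members, lists and tests were chosen with earlier results of these data known.

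Replicate numbers of the labels were taken to pair Sca-1Lo with Sca-1Neg arrays. The correlation of same-numbered deviations from the group means was 0.18, 0.41, 0.12 and 0.56. It bears the pairs out in part only. Sca-1Lo replicate 3 correlated best with Sca-1Neg replicate 4, and Sca-1Neg replicate 1 with Sca-1Lo replicate 2. The study's own sample numbers, found by matching values to its supplementary columns, give the same pairs. Blocked values are given where they change a call. Alternatives covered the low-signal filter, an offset of 16, the floor, scaling, the test, the spread estimate, the arrays fitted, pairs, study numbers 1 and 2 against 4 and 5, the probe set of a gene and each array left out. A further 3, chosen after seeing the data, are named in the closing section.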

Additional observations from a re-analysis of the deposited data

Results flagged for a closer look

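In 5 of 188 groups of 4 arrays formed by the 94 named genes, 1 array lay apart by Dixon's test at the 95% level, a test that chance alone passes in about 1 in 20 groups. Sca-1Neg replicate 4 was the high array for Notch3, at 7742, for Notch4, at 93.2, and for Smo, at 1288. Sca-1Neg replicate 1 was low for Ushbp1, at 9.34, and Sca-1Lo replicate 3 was low for Gm32688, at 41.6.

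For 2 of 17186 genes, at an adjusted p under 0.05 in limma, the difference between Sca-1Lo and Sca-1Neg itself differed between study numbers 1 and 2 and study numbers 4 and 5. At an unadjusted p under 0.05 it did for 5743 of 41031 probe sets. Xcl1, a chemokine of natural killer and cytotoxic T cells, had signals of 358, 521, 261 and 296 on the Sca-1Lo arrays and 49788, 101432, 237 and 215 on the Sca-1Neg arrays. Its difference was higher by 7.66 on the log2 scale within numbers 4 and 5 (limma adjusted p = 0.0363 for the interaction). Klre1, a receptor of natural killer cells, had signals of 61.2, 41.1, 53.5 and 68.2 on the Sca-1Lo arrays and 2568, 4568, 26.8 and 37.2 on the Sca-1Neg arrays. Here the difference was higher by 7.03 (limma adjusted p = 0.0363 for the interaction). Sca-1Neg replicates 1 and 2 held all of the high values of both genes.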

How the results depend on the processing

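None of the 43 named genes called higher and 19 called lower took the opposite sign under an alternative. The difference of 4933427E13Rik was 0 with signals under 20 set to 20. The calls moved with the arrays used and with the treatment of low signals. Setting signals under 20 to 20 kept 37 of the 43 and 12 of the 19, an offset of 16 kept 39 and 18, centring on the 75th percentile 41 and 15, and no filter on low signals 40 and 19. With 1 array left out, 29 to 41 of the 43 and 4 to 19 of the 19 stayed called. In the same fits probe sets higher numbered 203 to 1337 and lower 54 to 1071, and genes 121 to 718 and 28 to 591, with the lowest values without Sca-1Lo replicate 3 and the highest without Sca-1Neg replicate 3. Each of the 8 arrays, left out, moved at least 1 of these 4 counts by over 1.5 times. With the replicate number as a block, all 43 higher calls and 8 of 19 lower calls held. It gave 525 and 157 probe sets and 288 and 90 genes, and the study's own numbers gave the same fit. It added Trp63 (higher) and Myh11 (lower), and changed no other named call than those given with it in the text. Of 6546 values under an alternative, 5402 kept the call and direction, or moved by less than the spread.

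Quantile normalization gave 657 probe sets higher and 514 lower (395 and 260 genes). It moved the share of higher calls among called probe sets from 65.2% to 56.1%, against 72.2% after centring on the 75th percentile and 77% with the block. Quantile normalization also moved the median of all probe sets from 0.11 to 0.014. The methods' t-test, run without an offset on all probe sets tested and not on selected ones, called 2 probe sets higher and 0 lower (2 and 0 genes). In limma 5601 probe sets had an unadjusted p under 0.05. The methods' chain without detection calls and SAM, also without an offset, called 156 and 16 probe sets (110 and 11 genes), from fewer probe sets. A test against that minimum change (treat) gave 82 and 7 (55 and 6 genes). Array weights, whose estimate did not converge fully, gave 4354 and 2003 (1935 and 1023 genes). The 8 arrays alone gave 172 and 20 (106 and 13 genes). Study numbers 1 and 2 alone gave 1493 and 1463 (792 and 793 genes). Study numbers 4 and 5 alone gave 0 and 0 (0 and 0 genes) in limma, with 5750 probe sets at an unadjusted p under 0.05, 3814 of them higher. Of 3 alternatives chosen after seeing the data, study numbers 4 and 5 with the spread of all 14 arrays gave 831 and 402 probe sets (441 and 240 genes), and study numbers 1 and 2 with that spread gave 379 and 351 (199 and 195 genes). Leaving out Sca-1Neg replicates 1 and 2 gave 190 and 37 probe sets (114 and 23 genes), with 22 of 43 and 3 of 19 named calls. Causes beyond the number of arrays or genes tested were not tested.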

Other observations

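The genes below lie outside the lists and were chosen among called genes after their values were seen, so that they say nothing of the groups they belong to. Pln, Myom1, Casq2 and Hrc, known from the calcium store and sarcomere of muscle, fell, and Sca-1Neg replicate 4 was highest for each. Pln, which encodes the calcium pump regulator phospholamban, had signals of 870.1, 441, 85.3 and 89.2 on the Sca-1Lo arrays and 3146, 2259, 1209 and 8144 on the Sca-1Neg arrays and differed by -3.64 ± 0.76 (SE, limma adjusted p = 0.0285). Myom1, a protein that links myosin filaments, had signals of 252, 133, 60.1 and 59.6 on the Sca-1Lo arrays and 1466, 1001, 525 and 3503 on the Sca-1Neg arrays and differed by -3.61 ± 0.54 (SE, limma adjusted p = 0.00472). Casq2, the calcium-storing calsequestrin, differed by -2.63 ± 0.49 (SE, limma adjusted p = 0.015). Hrc, a calcium-binding protein of the same store, differed by -2.83 ± 0.50 (SE, limma adjusted p = 0.0117). The populations did not overlap in these 4 genes. Olig1, a transcription factor of glia, had signals of 39.3, 13.5, 11.6 and 5.79 on the Sca-1Lo arrays and 128, 108, 69.5 and 510.0 on the Sca-1Neg arrays and fell at least 6.28-fold (limma adjusted p = 0.0109). Mag, the myelin-associated glycoprotein, differed by -2.75 ± 0.63 (SE, limma adjusted p = 0.0426), with its highest signal in Sca-1Neg replicate 2. In the list of Schwann cell and nerve genes, by contrast, none of 10 was called, with 5 positive and 5 negative differences and a median of 0.054.

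On the higher side, Sox7, a transcription factor of vessels, had signals of 246, 202, 310.0 and 444 on the Sca-1Lo arrays and 24.7, 35.2, 37.5 and 39.97 on the Sca-1Neg arrays and differed by 3.09 ± 0.36 (SE, limma adjusted p = 0.00107). Il33, a cytokine of barrier cells and endothelium, had signals of 899.6, 439, 2243 and 2882 on the Sca-1Lo arrays and 64.1, 70.1, 267 and 225 on the Sca-1Neg arrays and differed by 3.30 ± 0.64 (SE, limma adjusted p = 0.0187). Cyp2f2, a cytochrome P450 known from airway epithelium, had signals of 4829, 3716, 9074 and 6789 on the Sca-1Lo arrays and 845, 725, 3112 and 558 on the Sca-1Neg arrays and differed by 2.51 ± 0.45 (SE, limma adjusted p = 0.0132). Cxcl15, a chemokine of lung epithelium, differed by 2.96 ± 0.42 (SE, limma adjusted p = 0.00309). Cdh16, a cadherin known from kidney tubules, differed by 2.87 ± 0.34 (SE, limma adjusted p = 0.00126). In all 5 every Sca-1Lo array lay above every Sca-1Neg array.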
